A study of Mus musculus with 2 samples.

Results

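Bone morphogenetic protein (BMP) signalling genes and dorsal midline transcription factors were described in mouse forebrain at embryonic day 11.5. The set held 10 genes, all found in both deposited gene tables by stable gene identifier through the GENCODE M21 names, out of 43346 Ensembl genes, 21474 of them protein coding. They were 5 ligands (Bmp2, Bmp4, Bmp5, Bmp6 and Bmp7), 2 type I receptors (Bmpr1a and Bmpr1b) and 3 homeobox transcription factors (Msx1, Msx2 and Lmx1a). The series was 1 group of 2 total RNA-seq libraries from healthy B6NCrl forebrain, with no treatment and no mutant allele named in the labels. Replicate 1 came from a pool of 109 embryos and replicate 2 from a pool of 88, each of mixed sex, with an input of 10 ng RNA over 200 nucleotides in length. With 1 group there was no contrast between conditions, and each value below is a level in a pool or a difference between these pools.

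BMPs are secreted dimers that bind pairs of type I and type II receptor kinases. The type I receptor then phosphorylates the receptor SMADs (Smad1, Smad5 and Smad9), which enter the nucleus with Smad4 and raise targets such as the Id and Msx genes. In the embryonic telencephalon, BMP ligands are known from the dorsal midline, where the roof plate gives way to the cortical hem and the choroid plexus, and Lmx1a is known in mouse as a gene that the roof plate needs. Twsg1, noggin, follistatin and related secreted proteins bind the ligands outside the cell and limit or redistribute them.

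The gene tables held 23165260 and 33597028 expected counts on annotated genes in replicates 1 and 2. An expected count is an estimated number of reads, which need not be whole because reads that fit several transcripts are divided. TPM is that count divided by transcript length and scaled to a constant total over all entries, and spike-in RNAs took 13.0% and 12.7% of TPM. Markers of the dissected tissue were present, with 9 of 9 forebrain neuroepithelium genes at 1 TPM or more in both libraries and summed levels of 1187 and 1192 TPM. Markers of other cells were present as well. All 12 mesenchyme genes reached 1 TPM (summed 751.6 and 767.3 TPM), as did 10 of 12 surface ectoderm and placode genes (60.2 and 59.3 TPM), 8 of 8 endothelial genes (151.5 and 146.4 TPM) and 6 of 6 blood genes (12778 and 13835 TPM). None of 8 hindbrain and spinal cord HOX genes did, with summed levels of 0.31 and 0.12 TPM and 4 of them without a count. Msx and BMP genes are also known from head mesenchyme and surface ectoderm, and the part of these cells in the levels below was not tested. In bulk tissue, fewer cells of a type and less RNA per cell cannot be told apart.

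All 10 genes reached 1 TPM in both libraries, against 58.6% of protein-coding genes. Msx1 stood highest, at 129.4 and 138.0 TPM in replicates 1 and 2, a mean of 133.7 ± 6.09 TPM (SD, n = 2). Bmpr1a followed at 43.9 and 47.5 TPM, and Msx2 at 28.9 and 26.1 TPM. In the middle of the order lay Bmp7, Bmp4, Bmpr1b and Lmx1a, with means between 6.17 and 15.6 TPM. Bmp5, Bmp6 and Bmp2 closed it with means of 3.45, 2.43 and 2.23 TPM. In 2 of the 9 pairs of neighbours in this order, Bmp5 with Bmp6 and Bmp6 with Bmp2, the ranges of the libraries overlapped. In the other 7 pairs they did not, with mean levels 1.33 to 2.93 times apart. The highest gene ranked 1114 and the lowest 11659 among protein-coding genes by mean TPM. Of the 10 genes, 7 lay above the middle of that ranking. The ranking includes undetected genes, since 12581 of the 21474 protein-coding genes reached 1 TPM in both libraries. The median of log2(TPM + 1) over the set was 3.43 ± 0.16 (SD, n = 2), beside 2.30 ± 0.02 over all protein-coding genes. Over only the protein-coding genes at 1 TPM or more in both libraries that median was 4.44, so the set lay below the middle of detected genes.

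**Figure D1:**
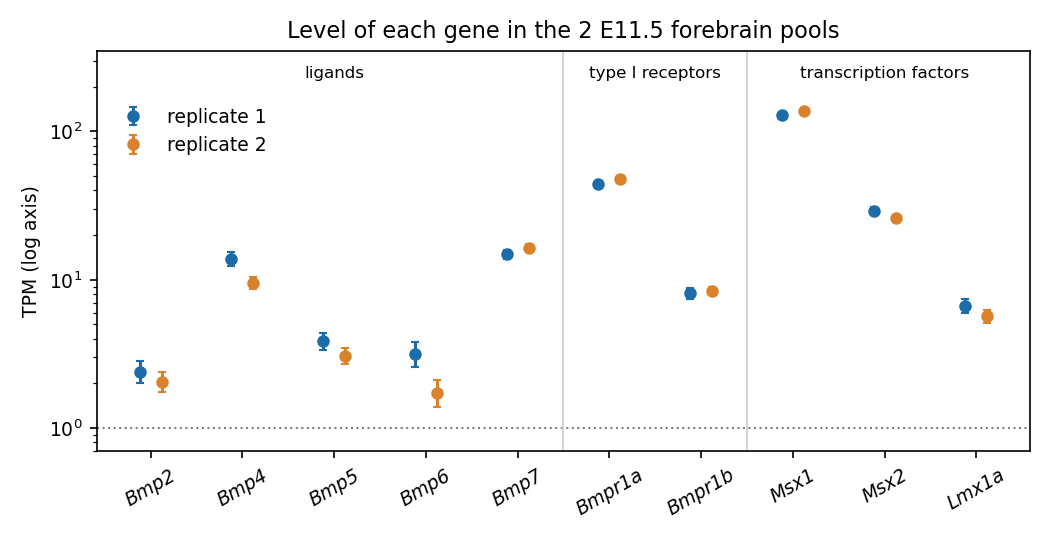
TPM of each gene (log axis) in replicate 1 (left point) and replicate 2 (right point), ordered by role, with bars for the 95% Poisson interval of the read count and a dotted line at 1 TPM. Msx1 lies highest at 129.4 and 138.0 TPM, and Bmp6 has the widest gap between the points, at 3.14 and 1.72 TPM.

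The 5 ligands summed to 38.1 TPM in replicate 1 and 32.7 TPM in replicate 2, and Bmp7 and Bmp4 made up most of it. Bmp7 (chr2:172868012-172940321, minus strand, GRCm38), a broadly acting ligand needed for eye and kidney development in mouse, had 14.8 and 16.3 TPM from 735 and 1124 reads. It held 38.9% of the ligand TPM in replicate 1 and 50.02% in replicate 2, the largest share in both. Bmp4 (chr14:46383520-46390669, minus strand), a ligand of the dorsal midline and of many other embryonic tissues, had 13.9 and 9.51 TPM from 365 and 398 reads, which was 36.4% and 29.1% of the ligand TPM. The level of Bmp7 over that of Bmp4 was therefore 1.07 in replicate 1 and 1.72 in replicate 2 (mean 1.39 ± 0.46, SD, n = 2). By listed TPM Bmp7 was above Bmp4 in both pools, narrowly in replicate 1. There the deposited credibility intervals overlapped, 13.12 to 15.73 TPM for Bmp7 and 11.96 to 15.54 TPM for Bmp4, so the order was not resolved. In replicate 2 they did not overlap (14.82 to 17.35 and 8.58 to 10.85 TPM). The TPM of Bmp4, and with it the ratio to Bmp7, also rests on its effective length, 1722 bases in replicate 1 and 1893 bases in replicate 2. That length depends on how the reads of Bmp4 were divided among its isoforms.

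The other ligands were low but counted well above single reads. Bmp5 (chr9:75775364-75900310, plus strand), which mouse skeletal patterning needs, had 3.85 and 3.05 TPM from 219 and 251 reads. Bmp6 (chr13:38345107-38500302, plus strand), a near relative of Bmp5 and Bmp7 known also for its role in iron regulation, had 3.14 and 1.72 TPM from 111 and 88 reads, with 95% Poisson intervals of 91.3 to 134 and 70.6 to 108 reads. Bmp2 (chr2:133552159-133562885, plus strand), the closest relative of Bmp4, had 2.40 and 2.05 TPM from 127 and 157 reads. Together these 3 genes made up less of the ligand TPM than either Bmp7 or Bmp4 alone, with shares of 10.1% and 9.34% for Bmp5, 8.25% and 5.27% for Bmp6, and 6.30% and 6.28% for Bmp2.

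Of 10 further BMP and GDF ligand genes, 1 reached 1 TPM in both libraries. Gdf5, a joint-forming factor in the limb, had 1.59 and 1.38 TPM, Bmp3 had 0.76 and 0.62 TPM, and Gdf6 had 0.50 and 0.53 TPM. Gdf7, a known roof plate ligand of the mouse spinal cord, was listed with 12 reads in replicate 1 and 1 read in replicate 2, at 0.60 and 0.03 TPM. Bmp10 and Bmp15 had no read in either library. The median of log2(TPM + 1) over these 10 genes was 0.18, below the 2.30 of all protein-coding genes and below the 2.15 of the 5 ligands described above.

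Both type I receptors of the set were detected, Bmpr1a at about 5 times the level of Bmpr1b. Bmpr1a (chr14:34410734-34503341, minus strand), the receptor through which Bmp2 and Bmp4 act in most mouse tissues, had 43.9 and 47.5 TPM from 3771 and 5913 reads. Bmpr1b (chr3:141837136-142169425, minus strand), a receptor known from limb cartilage and the neural tube, had 8.09 and 8.43 TPM from 579 and 911 reads. The ratio of their levels was 5.43 in replicate 1 and 5.64 in replicate 2 (mean 5.53 ± 0.15, SD, n = 2), which moved little between pools. Bmpr1a alone stood at 1.15 and 1.45 times the summed level of the 5 ligands.

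The other receptors and co-receptors of the pathway were all detected (8 of 8), with a median of log2(TPM + 1) of 4.45. Acvr2b, a type II receptor, had 83.3 and 74.4 TPM, the co-receptor Rgmb had 40.2 and 35.2 TPM, and the type II receptor Acvr2a had 28.0 and 29.0 TPM. Among the SMAD transducers 3 of 4 were detected. Smad1 had 48.1 and 43.0 TPM, Smad5 had 39.2 and 40.9 TPM and the shared partner Smad4 had 27.6 and 23.0 TPM, while Smad9 stayed at 0.26 and 0.25 TPM. Inside or at the surface of the receiving cell, all 7 inhibitors were detected, led by the SMAD repressor Skil at 25.0 and 26.5 TPM and the ubiquitin ligases Smurf2 at 15.9 and 14.9 TPM and Smurf1 at 16.1 and 14.2 TPM.

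The summed level of the 5 ligands was 0.257 and 0.228 times that of 12 secreted BMP inhibitors in replicates 1 and 2 (mean 0.243 ± 0.020, SD, n = 2). The inhibitors summed to 148.1 and 143.2 TPM, and 8 of the 12 were detected. Twsg1, which binds ligands together with chordin, made up most of that sum at 84.6 and 80.0 TPM. Nbl1 had 19.5 and 18.9 TPM, and follistatin (Fst) had 14.1 and 16.1 TPM. Without Twsg1 the ratio was 0.599 and 0.517. Both ratios set 5 ligand genes against a larger number of inhibitor genes, so a value of 1 marks no balance between them. These are ratios of RNA levels per length and not of secreted protein. Of the chordin proteases, which free ligands by cutting chordin, Bmp1 had 22.0 and 19.0 TPM, while Tll1 at 0.81 and 0.79 TPM and Tll2 at 0.96 and 0.75 TPM stayed under 1.

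The 3 transcription factors spanned a wider range of levels than the ligands or the receptors. Msx1 (chr5:37820485-37824583, minus strand), a BMP-responsive homeobox repressor, had 3628 and 5595 reads. Msx2 (chr13:53466884-53473074, minus strand), its paralog, had 28.9 and 26.1 TPM from 1040 and 1351 reads. The level of Msx1 was 4.47 and 5.29 times that of Msx2 (mean 4.88 ± 0.58, SD, n = 2). Lmx1a (chr1:167689237-167848741, plus strand), a LIM homeobox gene of the roof plate and cortical hem, had 6.67 and 5.66 TPM from 331 and 403 reads, and Msx2 stood 4.34 and 4.61 times above it.

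The ID genes, which code for dominant negative helix-loop-helix proteins and are standard BMP targets, were detected in full (4 of 4). Their median of log2(TPM + 1) was 7.59. Id3 had 300.8 and 278.0 TPM, Id4 had 255.4 and 254.5 TPM, Id2 had 139.6 and 150.3 TPM and Id1 had 40.4 and 42.0 TPM. Of 22 other genes known from the roof plate, cortical hem and choroid plexus, 18 were detected, with a median of 3.48. Rspo3, which amplifies WNT signals and is known from the cortical hem, led at 62.7 and 56.8 TPM. Otx2, a homeobox gene of the choroid plexus and of the early rostral brain, had 55.5 and 59.6 TPM, and Rspo1 had 51.2 and 44.5 TPM. The hem gene Wnt3a stood at 3.91 and 4.66 TPM and the choroid plexus carrier gene Ttr at 8.18 and 6.78 TPM, the first below and the second above Lmx1a in both pools. Other genes of this list lay on both sides of Lmx1a. Wnt8b (41.3 and 39.1 TPM), Wnt5a (12.2 and 13.8 TPM) and the choroid plexus gene Folr1 (8.30 and 9.01 TPM) lay above it. The choroid plexus genes Foxj1 (5.42 and 4.19 TPM), Clic6 (3.24 and 2.44 TPM) and Kcne2 (0.08 and 0.35 TPM) lay below. Lmx1b, Wnt1, Wnt2b and Kcne2 were not detected in both libraries.

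**Figure D2:**
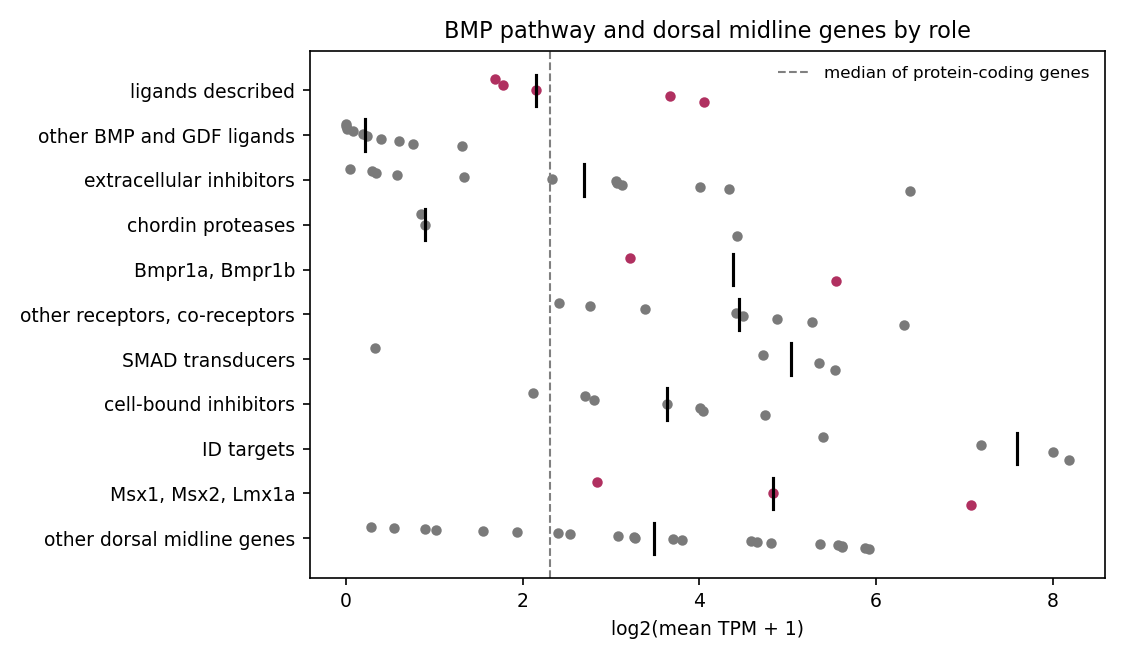
Each point is 1 gene of the BMP pathway or the dorsal midline, placed by log2 of (mean TPM over both libraries + 1), with a bar at the median of each role and a dashed line at the median of all protein-coding genes, 2.30. Coloured points are the 10 genes described, and the ID targets form the highest row while the other BMP and GDF ligands form the lowest.

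The libraries were then compared gene by gene, with read counts scaled to library size. An exact binomial test was used, which compares these 2 pools only and measures counting error, not the spread between embryos. At an adjusted p under 0.05, 23.4% of the 18297 genes tested differed, 10.9% with a higher level in replicate 1 and 12.6% with a higher level in replicate 2. Of the 10 genes described, 5 differed, 3 of them higher in replicate 1 (Bmp4, Bmp6 and Msx2) and 2 higher in replicate 2 (Bmpr1a and Msx1). The share of genes called grew with the read count, so each gene is best read against genes of like count. Between 100 and 300 reads summed over the libraries 13.5% of protein-coding genes were called, and between 3000 and 10000 reads 38.1% were. The median log2 ratio over the set was 0.19, beside -0.0043 over all genes tested.

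Bmp6 had the largest log2 ratio of the set, 0.86 on the count scale, a 1.82-fold higher level in replicate 1 (95% counting interval 0.45 to 1.28 on the log2 scale, adjusted p = 0.000337, exact binomial test). That was 1.55 times the SD of log2 ratios among genes of like count. Bmp4 had a log2 ratio of 0.40 (interval 0.20 to 0.61, adjusted p = 0.00128, exact binomial test), or 1.58 such SDs. In TPM the log2 ratio of Bmp4 was 0.54, since its effective length was 1722 bases in replicate 1 and 1893 bases in replicate 2. These lengths depend on the division of reads among Bmp4 isoforms, which was not resolved between the pools, as given below. On the count scale the ratios of Bmp6 and Bmp4 lay within 2 SDs of the genes of like count.

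The remaining calls were small in size. Msx2 was 1.11-fold higher in replicate 1 (log2 ratio 0.15, interval 0.03 to 0.27, adjusted p = 0.0482, exact binomial test), and this call was lost when libraries were scaled by their spike-ins or when genes with few reads were also tested. Bmpr1a had a log2 ratio of -0.12 (interval -0.18 to -0.06, adjusted p = 0.000717, exact binomial test). Msx1 had a log2 ratio of -0.10 (interval -0.16 to -0.04, adjusted p = 0.0111, exact binomial test). They had 9684 and 9223 reads over both libraries, and their ratios were 1.00 and 0.80 SDs of genes of like count, on the lower side. For these abundant genes a difference of under 10% was past counting error.

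For the other 5 genes the exact binomial test made no call, with adjusted p of 0.0539 for Bmp5, 0.0867 for Lmx1a, 0.255 for Bmpr1b, 0.398 for Bmp2 and 0.425 for Bmp7. Their log2 ratios were 0.33 for Bmp5 (interval 0.06 to 0.60), 0.25 for Lmx1a (0.03 to 0.46), -0.12 for Bmpr1b (-0.28 to 0.03), 0.22 for Bmp2 (-0.13 to 0.57) and -0.08 for Bmp7 (-0.22 to 0.05). At this depth differences of those sizes could not be told from 0 after adjustment. Bmp5 passed when only genes with 100 or more reads were tested.

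**Figure D3:**
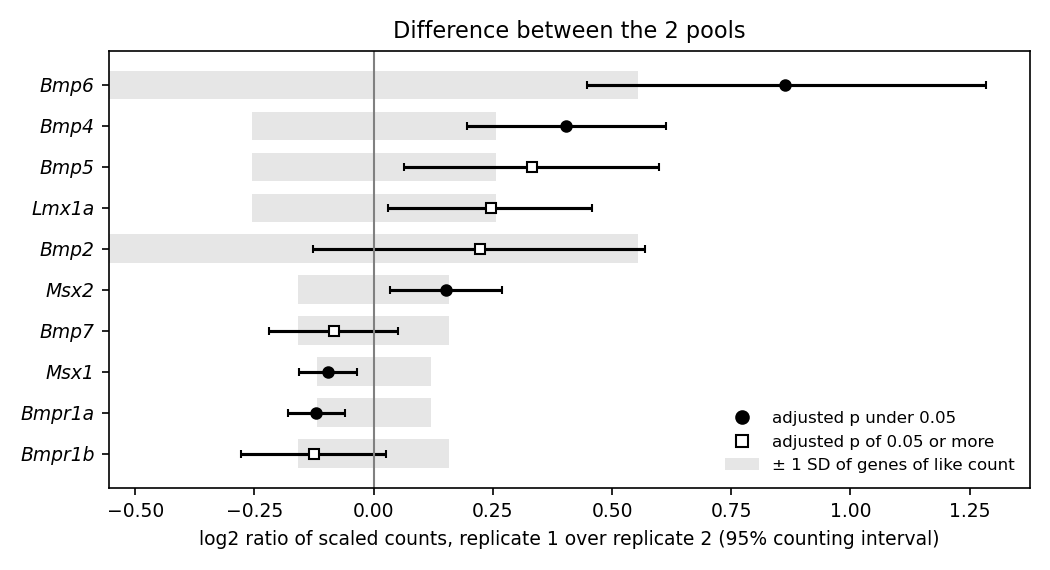
Log2 ratio of scaled counts, replicate 1 over replicate 2, for each gene, with its 95% counting interval. Filled circles have an adjusted p under 0.05, and grey bands show 1 SD of the log2 ratios of genes with a like read count. Bmp6 lies farthest to the right at 0.86, and Bmpr1a and Msx1 lie left of 0 with narrow intervals.

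Among the 70 other genes of the pathway and the dorsal midline, 65 were tested and 19 were called, 15 higher in replicate 1 and 4 higher in replicate 2. Over all genes tested, 23.4% were called, 10.9% higher in replicate 1 and 12.6% higher in replicate 2. Whether the pathway genes differ from that share was not tested. The split of 15 and 4 was the same with DESeq2 size factors but not with spike-ins. With libraries scaled by spike-in counts it was 9 and 9, and over all genes the share of calls that were higher in replicate 1 moved to 29.4%, against 46.4% with the main scaling. The calls of Bmp4, Bmp6, Bmpr1a and Msx1 held under each of these scalings. The called pathway genes included the receptor genes Acvr2b (log2 ratio 0.16) and Rgmb (0.19), the transducers Smad1 (0.16) and Smad4 (0.24), the protease gene Bmp1 (0.21), the inhibitory SMAD gene Smad7 (0.48), and noggin (Nog, 0.37), with its fellow inhibitor Chrdl1 on the other side (-0.43). Gdf7 was called as well, from 12 and 1 reads (adjusted p = 0.00171, exact binomial test). Its log2 ratio was 3.59, with 0.5 counts added to each library as for the other genes. Without that addition its scaled count was 17.3 times as high in replicate 1, with a 95% counting interval from 2.56 to 740.1. Among targets, Id3 had a log2 ratio of 0.10 and Id2 one of -0.11.

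Reads were divided among 24 annotated transcripts of the 10 genes. In all 10 genes the leading isoform was a protein-coding one. Bmp2 and Bmp6 had 1 transcript each, and 14 of the 24 transcripts held 10% or more of their gene's TPM in either library. In 4 genes (Bmp4, Bmp7, Bmpr1b and Lmx1a) more than 1 isoform reached that share. For the rest, the first isoform held 94.5% and 94.99% in Bmpr1a, 96.2% and 95.8% in Msx1, and 99.5% and 98.7% in Msx2.

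**Figure D4:**
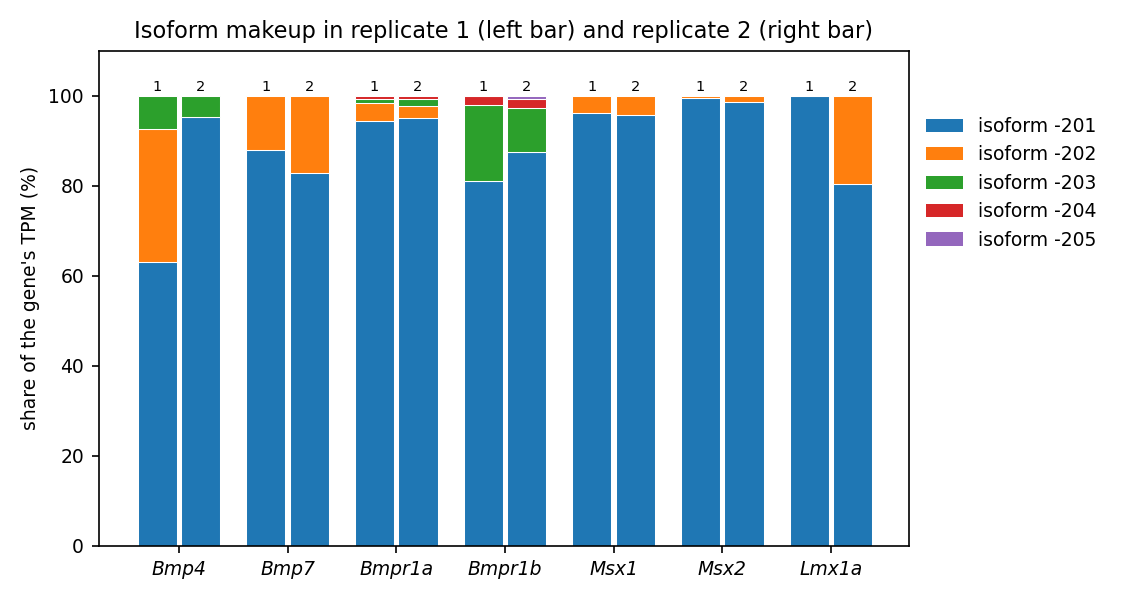
Share of each gene's TPM held by its annotated isoforms in replicate 1 (left bar) and replicate 2 (right bar), for the 7 genes with more than 1 isoform above 0 in a library. The share of Bmp4-201 is 63.1% and 95.4%, and that of Lmx1a-201 is 100% and 80.4%.

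The reads of Bmpr1b were divided among transcripts with separate annotated starts. Transcripts from its middle start (Bmpr1b-201) held 81.0% and 87.5% of the gene's TPM. The most distal start, 187161 bases upstream, held 16.9% and 9.85% (Bmpr1b-203), and the most proximal start held 2.10% and 2.61%. By posterior mean TPM the middle start held 77.6% and 84.5%, the distal start 18.1% and 11.2%, and the proximal start 4.25% and 4.29%. The order was the same in both pools by either measure. Bmpr1b-204, which leads the proximal start, has only 15 bases in no other isoform, so its share rests on little sequence of its own. The RefSeq sequences of the 250 bases before the middle and the proximal start follow, to set the start with the largest share beside the one with the smallest. Both are from GRCm38.p6, read 5′ to 3′ on the minus strand, and cover chr3:141982265-141982514 and chr3:141931589-141931838. Capitals mark matches on either strand to 5 words, namely the GC-rich SMAD word GGCGCC, the SMAD palindrome GTCTAGAC, the E-box CACGTG, the TATA box word TATAAA and the CCAAT box.
Bmpr1b middle start: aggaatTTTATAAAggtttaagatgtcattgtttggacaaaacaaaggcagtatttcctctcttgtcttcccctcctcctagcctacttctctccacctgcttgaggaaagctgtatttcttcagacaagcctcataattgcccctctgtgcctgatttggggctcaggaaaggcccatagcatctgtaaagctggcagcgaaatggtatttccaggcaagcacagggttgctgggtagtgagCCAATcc
Bmpr1b proximal start: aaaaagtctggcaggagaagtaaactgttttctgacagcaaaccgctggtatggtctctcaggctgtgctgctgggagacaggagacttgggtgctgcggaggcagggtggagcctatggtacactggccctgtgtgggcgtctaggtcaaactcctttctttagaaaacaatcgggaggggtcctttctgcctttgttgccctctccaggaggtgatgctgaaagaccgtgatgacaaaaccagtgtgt
The window of the middle start held 1 CCAAT, 7 bases before the start, and 2 overlapping matches to TATAAA that began 244 and 242 bases before it. In all, 33.9% of 32851 RefSeq windows of this length hold CCAAT and 12.4% hold TATAAA. The RefSeq proximal start lies 65 bases from that of Bmpr1b-204 in M21. None of the 5 words was in the window of the proximal start, which says only that these letters are not there. GC content was 46.8% and 52.8% in the middle and the proximal window, beside a median of 52.4% over all windows.

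Bmp4 was divided in different ways in the 2 pools. Bmp4-201 held 63.1% of its TPM in replicate 1 and 95.4% in replicate 2, and Bmp4-202 held 29.4% and 0%. By posterior mean TPM, which averages over the ways of dividing the reads, Bmp4-202 held 29.9% and 10.5%. Every base of Bmp4-202 is also in Bmp4-201, whose exons hold 431 further bases, and the starts lie 119 bases apart. The deposited credibility intervals of the TPM of Bmp4-202, 1.60 to 6.62 in replicate 1 and 1.25e-05 to 2.28 in replicate 2, overlapped. The difference in isoform makeup was not tested, and a separate use of the Bmp4 starts was not resolved by these tables. The window before the outer start (chr14:46390670-46390919, minus strand, GRCm38.p6) is given with the same marks.
Bmp4: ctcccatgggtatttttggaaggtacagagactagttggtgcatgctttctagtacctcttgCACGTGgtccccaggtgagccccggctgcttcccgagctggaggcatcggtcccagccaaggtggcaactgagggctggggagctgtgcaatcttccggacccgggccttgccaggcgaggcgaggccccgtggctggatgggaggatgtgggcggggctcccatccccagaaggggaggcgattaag
It held 1 CACGTG, a word bound by some helix-loop-helix proteins, 188 bases before the start, a word found in 6.02% of all windows. Its GC content was 63.2%.

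The other divided genes were Bmp7 and Lmx1a. A retained intron transcript of Bmp7 (Bmp7-202) held 12.1% and 17.1%, with Bmp7-201 at 87.9% and 82.9%. Lmx1a-202 was listed at 0% in replicate 1 and 19.6% in replicate 2, and at 8.18% and 19.8% by posterior mean. It has 49 bases that Lmx1a-201 lacks and starts 320 bases away, and the credibility intervals of its TPM overlapped between the pools (1.34e-05 to 1.36 and 2.58e-05 to 2.50). As for Bmp4, the value of 0 in 1 pool did not separate the pools.

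Msx1, the highest gene of the set, has a RefSeq window that overlaps no annotated exon (chr5:37824586-37824835, minus strand, GRCm38.p6), shown with the same marks.
Msx1: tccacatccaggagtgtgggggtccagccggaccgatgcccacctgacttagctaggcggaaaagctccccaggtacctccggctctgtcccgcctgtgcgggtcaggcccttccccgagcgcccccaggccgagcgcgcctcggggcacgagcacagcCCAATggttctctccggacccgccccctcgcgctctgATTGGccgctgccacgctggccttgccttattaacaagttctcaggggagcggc
It held 2 matches to CCAAT, 91 and 54 bases before the start, and none of the other words, and its GC content was 68.0%. RefSeq windows were matched for 8 of the 10 genes, 10 windows in all, and GGCGCC, a word within sites that SMADs can bind, was in 1 of them, that of Bmpr1a, against 9.59% of all windows. GTCTAGAC, the classic SMAD palindrome, was in none of the 10 and in 0.167% of all windows.

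Exons of 4 of the 10 genes overlap a gene on the opposite strand by M21, and counting by strand is not stated, so reads there may belong to either gene. Bmp6 shares 224 of its exonic bases (5.74%) with Txndc5, a gene at 116.7 and 103.5 TPM, far above Bmp6 itself. The Bmp6 transcript of the deposited tables is 2410 bases long, however, against 3593 bases in M21, and it was not determined whether the shared bases are in the shorter one. Bmp5 shares 1878 bases (46.7%) with the antisense gene Gm26903, which was listed at 0.03 and 0 TPM. Bmpr1a shares 290 bases (4.57%) with Gm17110 at 3.31 and 2.10 TPM, and Bmp4 shares 89 bases (3.96%) with Gm15217 at 0.10 and 0.14 TPM. Expected counts were whole in both libraries for 8 of the 10 genes, all but Bmp5 and Bmpr1a.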

How the data were processed

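Per the labels, RNA was extracted with mirVana, spike-ins were used and the general protocol was a SMART-seq one. The authors deposited expected counts, TPM, FPKM, posterior mean TPM and credibility bounds per gene and transcript. Alignment was to mm10 with GENCODE M4, per the deposited text notes, and the aligner, quantifier, strand handling and credibility level were not found in the labels or headers. The labels call the libraries biological replicates, from separate collections.

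Genes were named by GENCODE M21 (97.96% of identifiers matched), and 26248 numeric entries and 97 spike-ins stayed out of library sizes. Deposited expected counts were rounded and scaled by TMM (edgeR 4.0.16, R 4.3.3). Genes with 10 or more counts summed were compared with a two-sided exact binomial test and Benjamini-Hochberg adjustment (scipy 1.17.1). Log2 ratios of counts used a prior of 0.5 counts in each library. Of these steps only the test between libraries was tried on simulated counts. Those held Poisson error alone and changes larger than any of the 10 genes showed. List levels used log2(TPM + 1). Whole counts lay within 0.005 of a whole number. Poisson intervals cover counting error only. Alternatives used DESeq2 1.42.0 size factors, spike-in totals, other minimums and deposited FPKM.

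Named genes were the 10 genes, the 3 highest of each list (all of short lists) and genes with overlapping exons. Others named here (Gdf7, Bmp10, Bmp15, Smad7, Nog, Chrdl1, Wnt3a, Ttr, Wnt8b, Wnt5a, Folr1, Foxj1, Clic6, Kcne2, Lmx1b, Wnt1, Wnt2b) were chosen after their values were seen. The members and lists were chosen with earlier results of these data known. Protein sequences of the members were not analysed here.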

Additional observations from a re-analysis of the deposited data

How the results depend on the processing

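Levels, ratios of levels, calls and isoform counts were recomputed, each under the alternatives that bear on it. Of 157 recomputed values, 138 kept their direction and side of the threshold or moved by less than the spread between libraries. Another 16 moved further, 2 lost a call, 1 gained a call and 0 reversed. Many of the 138 could not have come out otherwise. With 2 libraries, leaving 1 out always moves a mean level, ratio or list median by less than the SD. Rescaled FPKM equals TPM apart from rounding, and a constant factor per library cannot change a ratio of levels. For levels and ratios the tally is therefore no measure of robustness. The median level over the 10 genes, 9.97 TPM, was 11.4 TPM with TPM rescaled to Ensembl genes, a constant factor per library. It was 8.97 TPM without replicate 1 and 11.0 TPM without replicate 2. Ratios without 1 library ran from 5.43 to 5.64 for Bmpr1a over Bmpr1b, from 4.47 to 5.29 for Msx1 over Msx2, from 1.07 to 1.72 for Bmp7 over Bmp4, and from 0.228 to 0.257 for ligands over inhibitors.

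Calls between the libraries numbered 5 of 10 with DESeq2 size factors, 4 with spike-in totals, 4 with no minimum beyond 1 count and 6 with a minimum of 100 counts. Msx2 lost its call under spike-in totals (log2 ratio 0.11) and with no minimum, and Bmp5 gained one at 100 counts. Spike-in totals moved the median log2 ratio of all genes by -0.039. At a minimum of 5 TPM, 7 of the 10 genes were detected, and at 0.5 TPM all 10. Isoforms at 10% or more numbered 14 also by transcript FPKM and, in an alternative chosen after seeing the data, by posterior mean TPM, and 12 or 13 in a single library. With 2 pools, each SD rests on 1 degree of freedom. No paired analysis was possible because there was 1 group.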
